A study of Homo sapiens with 8 samples.

Results

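The genes described here are NAT10 and 39 other genes for enzymes, adaptors and readers that place, remove or recognise chemical marks on RNA. They were chosen by name, and all 40 were found among the 86369 Ensembl identifiers of the count table. Of the 40 genes, 37 passed the filter on low counts and were tested, and 3 (FBL, NOP2 and YTHDC1) did not. A further 109 RNA modification genes were read beside them, of which 96 were tested.

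NAT10 is the human RNA cytidine acetyltransferase. It makes N4-acetylcytidine (ac4C) on small-subunit ribosomal RNA, on some transfer RNAs with the adaptor THUMPD1, and has been described on messenger RNA. The commonest internal mark of messenger RNA, N6-methyladenosine (m6A), is written by a complex around METTL3 and METTL14, erased by FTO and ALKBH5, and read by proteins with a YTH domain. Ribosomal and transfer RNAs carry 2'-O-methyl groups, pseudouridine, m5C and modified wobble uridines. Some of these are set by enzymes dedicated to a few positions, and others by guide-RNA-directed complexes.

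The cells were HepG2, an established human liver cancer line (hepatocellular carcinoma in the labels). They were transfected by lipofection with siRNA that targets NAT10 (the siNAT10 group) or, as the comparison, a negative control siRNA (the siCtrl group). RNA was harvested 2 days after transfection. Each group had 4 libraries, with replicates 1 and 2 in batch 1 and replicates 3 and 4 in batch 2. The labels do not say that replicates were separate cultures, so p-values measure the spread between libraries, which may be technical. The siRNA sequences and their number are not given in the sources used here. A 3' end protocol was used, in which a transcript gives about 1 tag whatever its length, so abundances (CPM, counts scaled to a common library total) are per transcript and were not divided by length.

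Libraries held 9731718 to 27977110 counts. The 9 hepatocyte markers summed to 9387 to 9868 CPM in siCtrl and to 7555 to 8134 CPM in siNAT10. These sums did not overlap between groups, which held singly for 5.4% of all genes tested. ALB, TF and AFP made up most of the sums, with means of 4411, 2086 and 1668 CPM in siCtrl. The markers did not move alike: of the 8 tested, 6 had a log2 fold change below 0 and 2 above. TF alone was called (-0.49, edgeR adjusted p 0.023), 1 of 8 beside 2.28% of all genes tested. ALB had -0.37, AFP -0.28, TTR -0.30 and SERPINA1 -0.46, whereas APOA1 had -0.0083, HNF4A 0.09 and FGB 0.37. SERPINA1 stood at only 1.70 to 13.2 CPM across the libraries. In the same libraries APOB, which liver cells make in quantity, had no count in 7 of the 8 libraries and 0.33 CPM in siCtrl replicate 3. The 11 markers of blood, endothelium, fibroblasts and stellate cells summed to 12.3 to 16.5 CPM in siCtrl and 8.90 to 13.7 CPM in siNAT10. PTPRC, CD3E, COL1A2 and DCN among them were at 0 in every library. The part of these marker shifts in the results below was not tested. Mitochondrially encoded genes took 1.49% and 1.52% of counts in siCtrl and 1.06% and 1.18% in siNAT10 within batch 1. Within batch 2 the shares were 1.64% and 1.83% in siCtrl, and 1.72% and 1.91% in siNAT10.

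NAT10 (ENSG00000135372; GRCh38 chromosome 11, 34105617 to 34147670, plus strand) was the check of the knockdown. It stood at 44.7, 39.2, 77.8 and 48.9 CPM in siCtrl replicates 1 to 4 and at 13.1, 12.2, 20.1 and 22.3 CPM in siNAT10 replicates 1 to 4. Every siNAT10 library was below every siCtrl library, and siCtrl replicate 3 was the highest of all. Set against the siCtrl mean of its own batch, NAT10 was left at 31.2%, 29.0%, 31.7% and 35.2% in siNAT10 replicates 1 to 4. By this measure the depletion was of similar depth in all 4 libraries, although the starting level differed between batches. The siCtrl mean of batch 2 comes from 77.8 and 48.9 CPM, so the 2 percentages of that batch depend on siCtrl replicate 3. In the model with a batch term the log2 fold change was -1.66 ± 0.14 (SE; edgeR adjusted p 2.0e-05). This left 31.6% of the siCtrl level with a 95% interval of 25.8% to 38.7%. Without siCtrl replicate 3 the log2 fold change was -1.52. Among the 40 genes NAT10 ranked 14 by mean CPM in siCtrl and 30 in siNAT10. In batch 2 alone, 2 libraries against 2, the log2 fold change was -1.58 and the edgeR adjusted p 0.086.

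**Figure D1:**
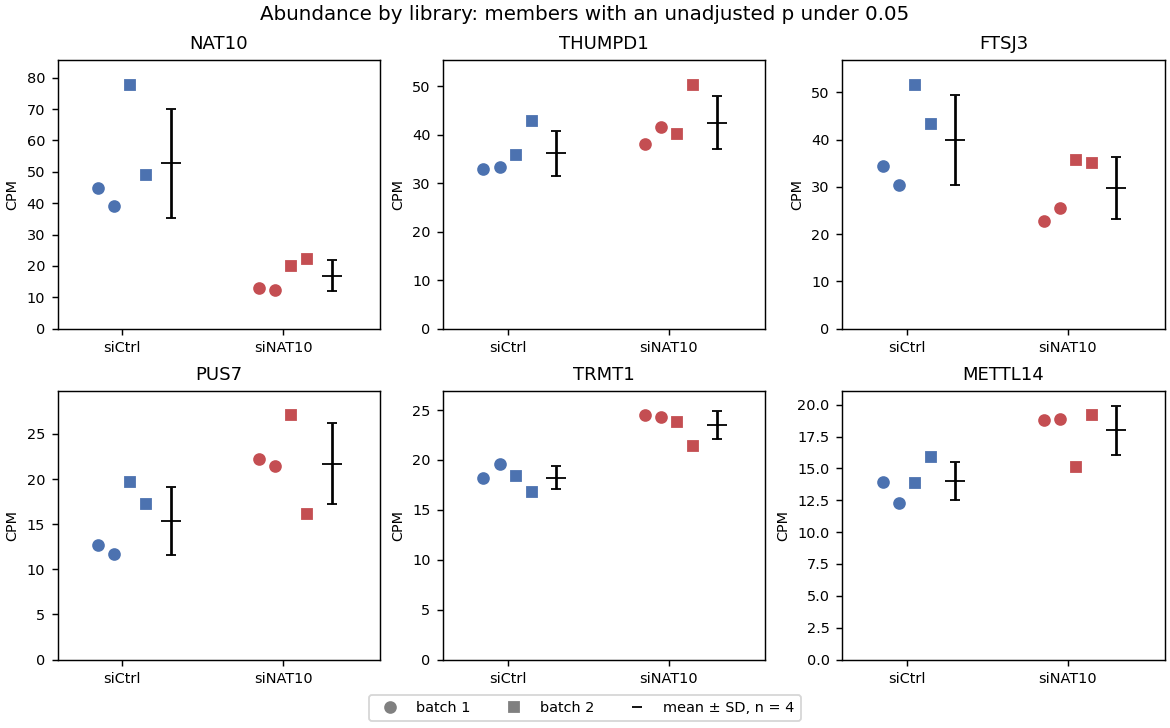
Abundance in CPM (y axis, from 0) of NAT10, THUMPD1, FTSJ3, PUS7, TRMT1 and METTL14 in each of 4 siCtrl and 4 siNAT10 libraries (circles, batch 1; squares, batch 2), with mean and SD (n = 4) in black. NAT10 and TRMT1 are the panels in which the groups do not overlap, NAT10 at 12.2 to 22.3 CPM in siNAT10 against 39.2 to 77.8 CPM in siCtrl.

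THUMPD1, the RNA-binding adaptor through which NAT10 reaches transfer RNA, did not pass the threshold. It stood at 33.0, 33.2, 35.7 and 42.9 CPM in siCtrl replicates 1 to 4 and at 38.0, 41.5, 40.1 and 50.4 CPM in siNAT10 replicates 1 to 4. The groups overlapped through siCtrl replicate 4. The log2 fold change was 0.23 with a 95% interval of 0.0033 to 0.46 (edgeR adjusted p 0.31), and 0.27 and 0.21 in batches 1 and 2 alone. ACSM3 lies on the other strand over the last 500 bases of THUMPD1, and whether counting used strand is not given in the sources used here.

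Of the 37 tested genes, 2 were called at an adjusted p under 0.05, NAT10 and FTSJ3, both lower in siNAT10. Over all 13840 genes tested 2.28% were called, 1.46% lower and 0.816% higher. Without the targeted gene the count was 1 of 36. The median log2 fold change of the 37 genes was 0.010, with 19 above and 18 below 0, beside -0.0024 over all genes tested. The median size of change was 0.12, beside 0.16 over all genes. An unadjusted p under 0.05 was reached by 6 of the 37 genes (15.7% of all genes tested), namely NAT10 and FTSJ3 below 0 and THUMPD1, METTL14, PUS7 and TRMT1 above it. DESeq2 called 4 of the 37 genes, NAT10, FTSJ3, PUS7 and TRMT1, beside 5.02% of the 11961 genes to which it gave an adjusted p.

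The intervals limit how large an undetected change could be. For all 36 tested genes other than NAT10 the 95% interval of the log2 fold change lay within 1 of 0, so a 2-fold change in either direction lay outside it. For 27 of them it lay within 0.5. The bound farthest from 0 was 0.88, for PUS7. These intervals cover the spread between these libraries and are not adjusted for the number of genes. The largest fitted changes apart from NAT10 were 0.54 for PUS7 and -0.42 for FTSJ3. A change of at least 0.5 in size was fitted for 2 of the 37 genes, NAT10 and PUS7, and for 9.2% of all genes.

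**Figure D2:**
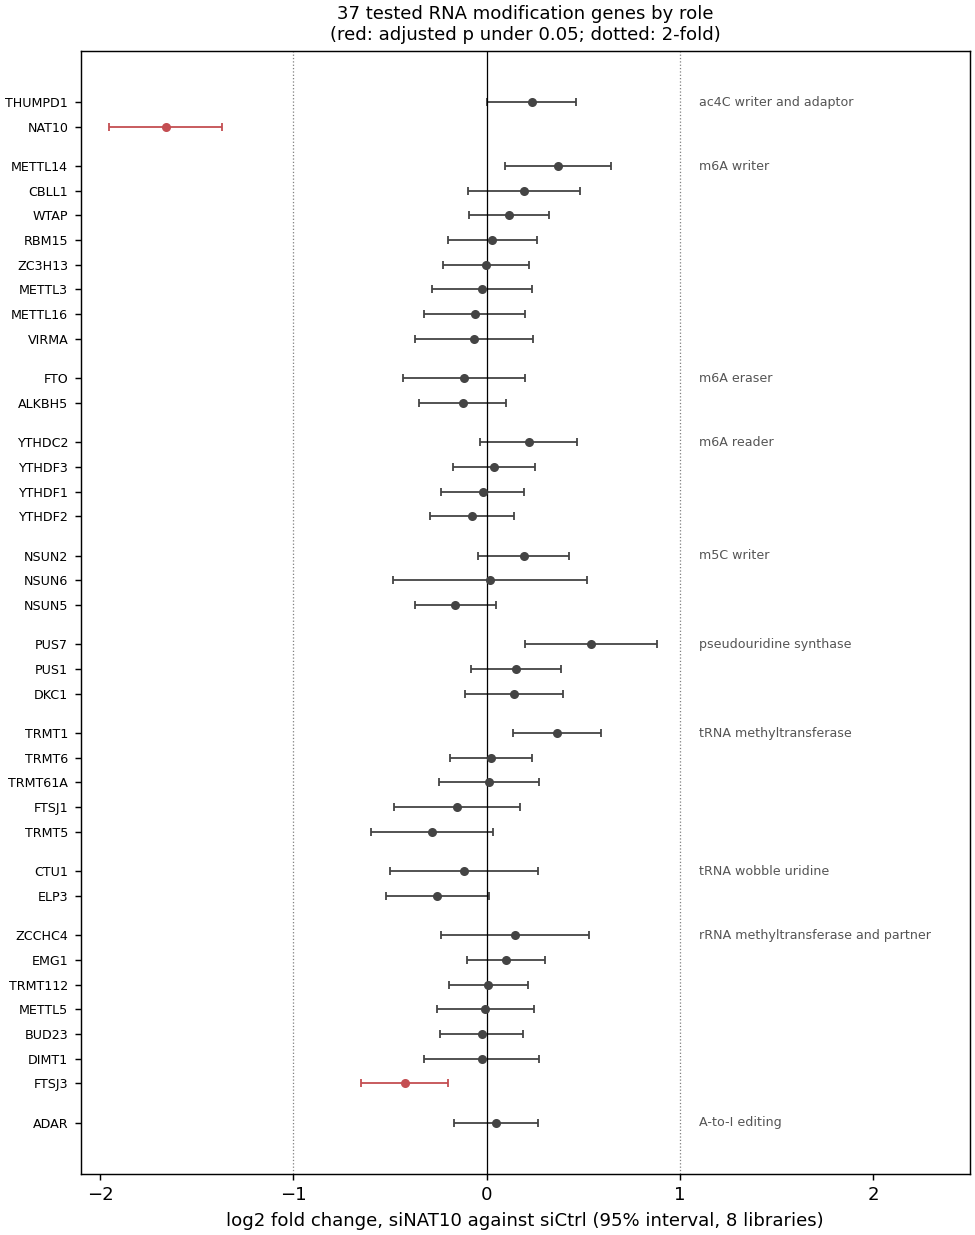
Fitted log2 fold change of siNAT10 against siCtrl (x axis, points) with 95% intervals (bars) for the 37 tested genes, grouped by role, from 8 libraries. NAT10 at -1.66 and FTSJ3 at -0.42 are drawn in red as called, and the intervals of the other 36 genes beside NAT10 stay between the dotted lines at 2-fold.

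The m6A writers were examined next. METTL3 is the catalytic subunit, METTL14 its RNA-binding partner, WTAP, VIRMA, ZC3H13, RBM15 and CBLL1 are regulatory or targeting subunits, and METTL16 is a separate methyltransferase. None of the 8 genes was called by edgeR or by DESeq2, and 1, METTL14, had an unadjusted p under 0.05. METTL14 stood at 14.0, 12.3, 13.9 and 15.9 CPM in siCtrl replicates 1 to 4 and at 18.8, 18.9, 15.1 and 19.2 CPM in siNAT10 replicates 1 to 4. Only siNAT10 replicate 3 fell inside the siCtrl range. Its log2 fold change was 0.37 ± 0.13 (SE; edgeR adjusted p 0.16), and was 0.52 in batch 1 and 0.21 in batch 2. METTL3, its partner in the heterodimer, had a log2 fold change of -0.02 with an interval of -0.28 to 0.24, and the difference between the partners was not tested. The other 6 writers lay between -0.06 (VIRMA) and 0.19 (CBLL1).

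The erasers and readers of m6A showed no called gene by either tool, and 0 with an unadjusted p under 0.05. ALKBH5, a demethylase, stood at 133.4 ± 14.1 CPM in siCtrl (SD, n = 4) against 122.5 ± 9.19 CPM in siNAT10 (SD, n = 4), a log2 fold change of -0.12 with an interval of -0.35 to 0.10. Leaving out siCtrl replicate 2 or 4 or siNAT10 replicate 2 or 3 brought it to between -0.08 and -0.06. Over all 8 fits that left out a library it ran from -0.17 to -0.06. FTO, the other demethylase, had -0.12 with an interval of -0.43 to 0.20. Among the cytoplasmic readers, which govern decay and translation of marked transcripts, YTHDF1 had -0.02, YTHDF2 -0.08 and YTHDF3 0.04. YTHDC2, a helicase and reader, had the largest value of these groups, 0.22 with an interval of -0.03 to 0.47 (edgeR adjusted p 0.40). It stood at 18.7, 17.4, 16.0 and 12.4 CPM in siCtrl and at 21.6, 21.9, 15.5 and 16.5 CPM in siNAT10 replicates 1 to 4, with overlapping groups.

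The m5C methyltransferases of the NSUN family act on transfer and messenger RNA (NSUN2, NSUN6) or on large-subunit ribosomal RNA (NSUN5). None of the 3 tested was called or had an unadjusted p under 0.05. NSUN2 stood at 147.1, 196.2, 265.7 and 241.8 CPM in siCtrl and at 225.1, 207.0, 266.9 and 258.5 CPM in siNAT10 replicates 1 to 4. The lowest value was that of siCtrl replicate 1, and the other 7 libraries overlapped. Its log2 fold change was 0.19 with an interval of -0.05 to 0.43, and 0.085 without siCtrl replicate 1. Over all 8 fits that left out a library it ran from 0.085 to 0.25. NSUN5 had -0.16 with an interval of -0.37 to 0.05, and its value is given as uncertain, since it is a gene with near-identical pseudogenes and the handling of multi-mapping reads is not given in the sources used here. NSUN6 was the least abundant tested gene of the 37, at 3.81 ± 0.59 CPM in siCtrl (SD, n = 4), and had the widest standard error, 0.24, with a log2 fold change of 0.018.

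Of the pseudouridine enzymes, DKC1 is the catalytic protein of the guide-RNA-directed complexes, whereas PUS1 and PUS7 are stand-alone synthases. All 3 had a log2 fold change above 0 and 0 of 3 were called by edgeR. PUS7 (ENSG00000091127; GRCh38 chromosome 7, 105439661 to 105522271) stood at 12.6, 11.7, 19.6 and 17.3 CPM in siCtrl replicates 1 to 4 and at 22.3, 21.4, 27.1 and 16.1 CPM in siNAT10 replicates 1 to 4. In batch 1 both siNAT10 libraries were above both siCtrl libraries, and in batch 2 siNAT10 replicate 4 was the lowest of the 4. The log2 fold change was 0.54 ± 0.16 (SE; edgeR adjusted p 0.093). It was 0.84 in batch 1 alone (edgeR adjusted p 0.0090; 1.19% of all genes passed there) and 0.23 in batch 2 alone, and the interaction of batch and siRNA had an unadjusted p of 0.058 in edgeR. Without siNAT10 replicate 4 the value was 0.73 and passed the threshold (edgeR adjusted p 0.0061). In the other 7 fits that left out a library PUS7 did not pass, and its lowest value was 0.46. DKC1 and PUS1 had 0.14 and 0.15, with intervals from -0.11 to 0.39 and from -0.08 to 0.38.

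Among the transfer RNA methyltransferases, TRMT1 (dimethylguanosine) came closest to the threshold. TRMT1 (ENSG00000104907; GRCh38 chromosome 19, 13104902 to 13117567) stood at 18.2, 19.6, 18.4 and 16.8 CPM in siCtrl replicates 1 to 4 and at 24.5, 24.3, 23.8 and 21.4 CPM in siNAT10 replicates 1 to 4. Every siNAT10 library was above every siCtrl library, which held for 2 of the 37 genes (TRMT1 and, in the other direction, NAT10) and for 5.4% of all genes tested. The log2 fold change was 0.37 ± 0.11 (SE; edgeR adjusted p 0.089), and it was 0.37 in each batch alone. DESeq2 called it (adjusted p 0.047). TRMT6 and TRMT61A, the subunits of the m1A methyltransferase, had 0.022 and 0.012. TRMT5, which methylates guanosine beside the anticodon, had -0.28 with an interval of -0.60 to 0.03, and FTSJ1, a 2'-O-methyltransferase of the anticodon loop, had -0.15.

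The enzymes of the wobble uridine were ELP3, the catalytic subunit of Elongator, and CTU1, which adds sulfur to the same base. ELP3 stood at 26.1, 22.2, 29.5 and 21.5 CPM in siCtrl and at 20.0, 23.0, 21.1 and 19.1 CPM in siNAT10 replicates 1 to 4, with overlapping groups. Its log2 fold change was -0.25 with an interval of -0.52 to 0.014 (edgeR adjusted p 0.35), and -0.13 without siCtrl replicate 3. Over all 8 fits that left out a library it ran from -0.32 to -0.13. CTU1 had -0.12 with an interval of -0.50 to 0.27.

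FTSJ3 was the gene called beside NAT10. It is a nucleolar 2'-O-methyltransferase needed for ribosomal RNA processing. FTSJ3 (ENSG00000108592; GRCh38 chromosome 17, 63819433 to 63830012) stood at 34.4, 30.3, 51.7 and 43.3 CPM in siCtrl replicates 1 to 4 and at 22.8, 25.5, 35.8 and 35.1 CPM in siNAT10 replicates 1 to 4. Both siNAT10 libraries were below both siCtrl libraries in each batch. All siNAT10 libraries lay beyond both siCtrl libraries of their batch, in one direction, for 3 of the 37 genes (NAT10, TRMT1 and FTSJ3) and for 14.7% of all genes. For FTSJ3 the groups overlapped only when batches were set together, since batch 2 was higher throughout. The log2 fold change was -0.42 ± 0.11 (SE; edgeR adjusted p 0.045), and it was -0.42 in each batch alone. The call was marginal: it was kept in 1 of the 8 fits that left out a library, the one without siCtrl replicate 4, and lost in the other 7, with adjusted p from 0.073 to 0.16. It was also lost with RLE size factors (0.051), with library size alone (0.081), after thinning (0.12), without the batch term (0.62), and in each batch alone (0.18 and 0.67).

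The other 6 tested genes of ribosomal RNA methylation lay near 0. EMG1, which acts on small-subunit RNA in the same nucleolar particles as NAT10, had a log2 fold change of 0.10. DIMT1 and BUD23, which methylate bases of small-subunit RNA, had -0.03 and -0.03. METTL5 and ZCCHC4, the m6A methyltransferases of ribosomal RNA, had -0.0074 and 0.15. TRMT112, the small partner that stabilises BUD23 and METTL5, had 0.010 with an interval of -0.20 to 0.22 and was the most abundant of the 37 genes, at 369.2 ± 36.97 CPM in siCtrl (SD, n = 4) against 371.9 ± 44.7 CPM in siNAT10 (SD, n = 4). ADAR, the adenosine deaminase of double-stranded RNA, had 0.05 with an interval of -0.17 to 0.26.

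FBL, NOP2 and YTHDC1 could not be read. FBL is the 2'-O-methyltransferase of the box C/D particles, NOP2 a nucleolar m5C methyltransferase and YTHDC1 the nuclear m6A reader, all in general use in growing cells. NOP2 was listed at 0 in all 8 libraries, and YTHDC1 had 4 counts in all, with 5 libraries at 0. FBL had 21 counts in all, between 1 and 6 in a library. A count of 0 allows up to 3 counts, which is 0.104 CPM in the deepest library and 0.293 CPM in the shallowest. The values say that the deposited counting recorded next to no reads for these 3 genes in either group, and the reason was not tested. Another gene, ENSG00000285238, lies on the same strand over the 3' end of NOP2. Over the last 500 bases, 11 of the 40 genes overlap another annotated gene, 3 of them one on the same strand (NOP2, NSUN6 and EMG1).

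The siRNA effect was compared between batches for each gene. A batch by siRNA interaction term passed in edgeR for 0 of the 37 genes and 0% of all genes, and an unadjusted p under 0.05 was found for 0 of the 37 and 3.04% of all genes. Apart from NAT10, 20 of 36 genes (55.6%) had a log2 fold change of the same sign in both batches, beside 61.9% of all genes fitted in both.

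**Figure D3:**
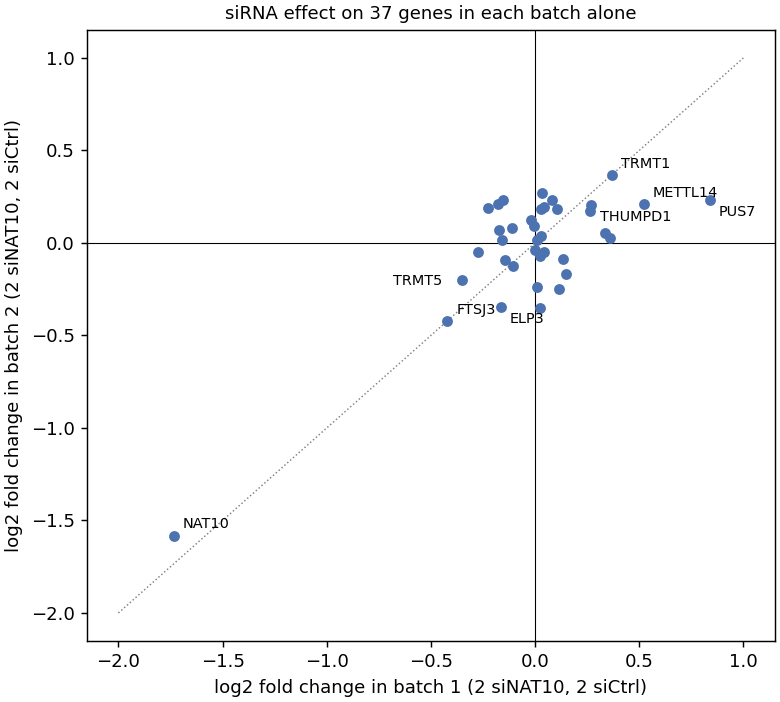
Log2 fold change of siNAT10 against siCtrl in batch 1 alone (x axis) and batch 2 alone (y axis), 2 libraries against 2 in each, for the 37 tested genes (points), with the line of equality dotted. NAT10 lies apart at -1.73 and -1.58, TRMT1 and FTSJ3 lie near the line, and PUS7 is at 0.84 and 0.23.

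Batch moved more of these genes than the siRNA did. The batch term of the same fit was called for 13 of the 37 genes (25.3% of all genes), 11 of them higher in batch 2 (13% of all genes) and 2, METTL3 and YTHDC2, lower. TRMT6 showed the largest difference, with 40.7, 37.0, 41.5 and 43.8 CPM in batch 1 against 78.5, 72.8, 75.4 and 66.9 CPM in batch 2, siCtrl before siNAT10. Its log2 difference between batches was 0.85 ± 0.10 (SE; edgeR adjusted p 2.7e-05), against 0.022 for the siRNA. Its partner TRMT61A had 0.67 and PUS1 0.73. NAT10 itself had a log2 difference of 0.67 ± 0.14 (SE; edgeR adjusted p 0.0021), and FTSJ3 one of 0.55. Between 8 and 14 genes were called in the fits that left out a library, with 8 without siCtrl replicate 4.

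**Figure D4:**
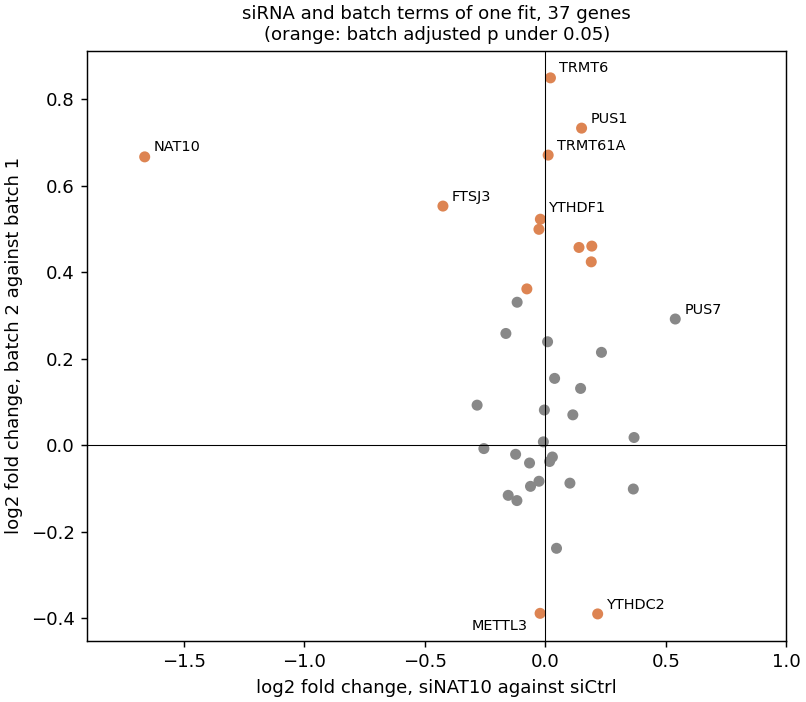
Log2 fold change of siNAT10 against siCtrl (x axis) and of batch 2 against batch 1 (y axis) from one fit of 8 libraries, for the 37 tested genes, with the 13 whose batch term was called in orange. NAT10 stands apart on the x axis at -1.66, while TRMT6 (0.85), PUS1 (0.73) and TRMT61A (0.67) lead on the y axis.

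The wider list of RNA modification genes was read in the same fit. Of its 96 tested genes, 1 rose, TARBP1, and 1 fell, IGF2BP2, a share of 2.08% beside 2.28% of all genes. The median log2 fold change was 0.03, with 56 above and 40 below 0, and 19 genes had an unadjusted p under 0.05, 12 of them above 0 (19.8%, beside 15.7% of all genes). The remaining 13 of the 109 listed genes were not tested.

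The genes of wobble base modification in the wider list were named after their values were seen. Among the role groups of that list they had the highest share with an unadjusted p under 0.05 in edgeR. The genes of mitochondrial ribosomal RNA, with 2 of 5 (40%), and the deaminases, with 1 of 3 (33.3%), came next. Some groups, such as those of the mRNA cap and of m5C, had 0. Of the 12 wobble base genes tested, 0 were called, 8 had a log2 fold change above 0 and 4 below. An unadjusted p under 0.05 was reached by 5 (41.7%, beside 15.7% of all genes tested). The 3 of these above 0 were QTRT1 (0.42, edgeR adjusted p 0.11), the catalytic subunit of the enzyme that places queuine, TRMU (0.34, edgeR adjusted p 0.16), the mitochondrial 2-thiouridylase, and CTU2, the partner of CTU1 (0.24, edgeR adjusted p 0.25). The 2 below 0 were the Elongator subunit ELP6 (-0.36, edgeR adjusted p 0.23) and MOCS3, a sulfur carrier enzyme upstream of CTU1 (-0.35, edgeR adjusted p 0.27). ELP2 and ELP4, also of Elongator, had -0.23 and -0.29.

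TARBP1, a 2'-O-methyltransferase of transfer RNA, stood at 10.5, 10.1, 8.34 and 10.0 CPM in siCtrl and at 16.3, 17.7, 11.1 and 12.0 CPM in siNAT10 replicates 1 to 4. Its groups did not overlap, which held for 3 of the 96 tested genes of the wider list and for 5.4% of all genes. Its log2 fold change was 0.54 ± 0.14 (SE; edgeR adjusted p 0.045), 0.72 in batch 1 and 0.34 in batch 2. IGF2BP2, an RNA-binding protein described as an m6A reader, stood at 158.3, 127.6, 124.5 and 104.2 CPM in siCtrl and at 103.2, 105.8, 92.6 and 83.9 CPM in siNAT10 replicates 1 to 4. The groups overlapped through siCtrl replicate 4 and siNAT10 replicate 2. Its log2 fold change was -0.41 ± 0.11 (SE; edgeR adjusted p 0.0498), and that of its paralogs IGF2BP1 and IGF2BP3 was -0.10 and 0.33, neither called. Both calls were lost in 7 of the 8 fits that left out a library, all but the one without siCtrl replicate 4, and in batch 2 alone and without the batch term. IGF2BP2 also lost its call in batch 1 alone (edgeR adjusted p 0.14), with RLE size factors (0.055), with library size alone (0.074) and with a mean of at least 10 counts (0.0504), and both genes lost theirs after thinning (0.080 for TARBP1 and 0.086 for IGF2BP2).

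The transcripts were searched for the heptamer GTCTCTA, which was picked in an earlier look at these data because genes with it in the 3' UTR tended to be lower in siNAT10. Its counts are therefore a description. The heptamer was read on the transcript strand of the MANE transcript of GENCODE 44 and was the only motif searched here. It was present in the 3' UTR of 1675 tested genes (15.4% of those with such a transcript). Their median log2 fold change was -0.06, with 5.25% called lower and 0.418% called higher. Genes without it had a median of 0.0078, with 1.03% called lower and 1.05% called higher. Carriers and other genes were not matched for 3' UTR length or repeat sequence. Whether the difference belongs to the heptamer itself was not tested. Of the 37 genes, 6 held it in the 3' UTR (16.2%). The NAT10 coding sequence holds it once, in an exon at chr11:34124320-34124342 (GRCh38, plus strand). Sites were kept from the whole transcript for NAT10 but from the 3' UTR alone for the other genes. The 6 genes were listed for holding the heptamer, so the letters they share with NAT10 follow from that choice. The sites are shown with the heptamer in capitals, 5' to 3' on the transcript strand.
NAT10: attatccaGTCTCTAaatcctga
TRMT5: aacagtaaGTCTCTAagtcaatc
NSUN5: ggaatgaaGTCTCTAtttgtaat
ZC3H13: gtagttttGTCTCTAtaggtaac
METTL16: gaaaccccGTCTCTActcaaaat
FTO: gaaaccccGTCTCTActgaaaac
PUS1: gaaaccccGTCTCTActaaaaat

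The 3' UTR sites, given with the flanking bases shown, span chr14:60973867-60973889 (TRMT5, minus strand), chr7:73303121-73303143 (NSUN5, minus), chr13:45955876-45955898 (ZC3H13, minus), chr17:2417238-2417260 (METTL16, minus), chr16:54114726-54114748 (FTO, plus) and chr12:131944335-131944357 (PUS1, plus). The last 3 sites listed share the 8 bases before the heptamer and most of the bases shown after it. Sites within repeats were not set apart, and the reason for the shared bases was not tested. None of the 6 genes was called or had an unadjusted p under 0.05 in edgeR, and DESeq2 called none of them. Their log2 fold changes were -0.28 (TRMT5), -0.16 (NSUN5), -0.0033 (ZC3H13), -0.06 (METTL16), -0.12 (FTO) and 0.15 (PUS1). FTSJ3 does not hold the heptamer in its 3' UTR. Whether the siRNA used contains the matching bases is not given in the sources used here, and the part of these sites in the results was not tested.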

How the data were processed

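Whole-number counts per gene were deposited for 8 libraries. Per the series' design text and the submitters' processing notes, the authors aligned with STAR 2.7.9a to GRCh38 and counted with featureCounts, and the notes also name Trim Galore 0.6.10 and cutadapt 3.5. The annotation, strand setting and handling of multi-mapping reads are not given in the sources used here, and the kit is named as FWD in one place and REV in another. The described and deposited matrices differ in name prefix and were taken as one. Of 86369 identifiers, 61458 matched GENCODE 44, which gave symbols. Molecular identifiers are not mentioned, so depth covers counting error only.

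In R 4.3.3, edgeR 4.0.16 kept genes by filterByExpr (minimum count 10), scaled by TMM and ran the quasi-likelihood F test with batch and siRNA as terms. Benjamini-Hochberg adjustment covered all 13840 genes, with calls under 0.05. Standard errors came from the F statistic, and intervals used its degrees of freedom. CPM used TMM-scaled library sizes. The procedure was tested on simulated data. DESeq2 1.42.0 and other settings were alternatives.

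Genes named with values were NAT10, THUMPD1, genes called or with an unadjusted p under 0.05, the largest change in each role, and called genes of the wider list. Other genes are given by log2 fold change. TRMT6, TRMT61A and PUS1 beside the batch term, the genes of wobble base modification in the wider list, the hepatocyte markers and the IGF2BP paralogs were named after their values were seen. The genes and lists were chosen with earlier results of these data known. After the analysis, 1 gene was taken out of the wider list and its counts, and is not reported here. Same-numbered libraries of the 2 groups correlated across genes, in their deviation from the group mean, with values of 0.39, 0.38, 0.45 and 0.36 (replicates 1 to 4). Differently numbered libraries of one batch gave 0.50 and 0.38 in batch 1 and 0.14 and 0.33 in batch 2, so these values do not separate replicate number from batch. A fit with a replicate block was run as an alternative.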

Additional observations from a re-analysis of the deposited data

Results flagged for a closer look

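For each of the 37 tested genes, the 4 libraries of each siRNA group were examined for one set far from the rest, its gap to the nearest one being over 0.829 of the whole range. Of the 74 groups, 2 had such a library. For 4 independent libraries chance gives this in about 1 in 20 groups, a rate that takes no account of the 2 batches within each group. METTL14 stood at 15.1 CPM in siNAT10 replicate 3, against 18.8 to 19.2 CPM in the other siNAT10 libraries. BUD23 stood at 80.4 CPM in siNAT10 replicate 1, against 68.0 to 70.1 CPM in the other siNAT10 libraries.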

How the results depend on the processing

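NAT10 kept its direction in all 18 alternatives and its call in 17, the exception being batch 2 alone (-1.58), and ran from -1.79 to -1.52 when a library was left out. Of the 37 genes, 1 was called with RLE size factors, with library size alone, without the batch term and after thinning to the smallest library, 0 in batch 2 alone (edgeR; 2 at an unadjusted p under 0.05), 4 by DESeq2, and 1 to 2 when a library was left out. Without a filter 3 of 39 were called. Over all genes the share called was 2.15% with RLE size factors, 2.07% with library size alone, 0.108% without the batch term, 1.52% after thinning, 0% in batch 2 alone, 5.02% by DESeq2, 2.13% without a filter, 3.28% with the replicate block, and 0.534% to 2.02% when a library was left out. With the replicate block 2 were called, NAT10 and FTSJ3, as with the batch term. Of the wider list, 2 genes were called as reported, 3 with the replicate block and 3 by DESeq2, 4 without a filter, 1 with RLE size factors, with library size alone, with a mean of at least 10 counts and in batch 1 alone, 0 after thinning, in batch 2 alone and without the batch term (edgeR; 18, 6 and 9 at an unadjusted p under 0.05), and 0 to 2 when a library was left out. The median of the 37 genes lay between -0.0035 (without siNAT10 replicate 2) and 0.049 (library size alone), and that of the 39 genes fitted without a filter was -0.010. The batch term was called for 8 to 14 genes when a library was left out. The test of the batch term and its alternatives were chosen after seeing the data. ADAR, near 0, was -0.019 in batch 1 alone and from -0.025 (without siNAT10 replicate 4) to 0.099 when a library was left out. PUS7 passed without a filter (0.53), by DESeq2 (0.55), in batch 1 alone (0.84) and without siNAT10 replicate 4. Fewer libraries leave fewer degrees of freedom; for the other settings the cause was not tested. NSUN6, with the fewest counts of the 37 genes, had the widest standard error, and FBL, NOP2 and YTHDC1 had too few counts to be tested.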
